A study of Mus musculus with 8 samples.

Results

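Genes of the leukemia inhibitory factor (LIF) pathway were followed as RNA through 4 cultures of N33, a mouse embryonic stem cell (ESC) line of the C57BL/6 strain. They are the 10 genes Lifr, Il6st and Osmr (receptor chains), Lif (the ligand), Stat3 (the transcription factor) and Socs3, Pim1, Pim3, Junb and Bcl3 (genes that STAT3 is known to regulate). They were picked by symbol for what they do, and all 10 were found among the 20278 genes of the deposited tables and passed the filter on low counts. The cultures were serum on gelatin without feeders (−F), serum on feeders (F), serum on feeders with 2i (F2i), and the defined medium N2B27 with 2i on poly-L-ornithine and laminin, with neither feeders nor serum (NB2i). Feeders were mouse embryonic fibroblasts (MEFs) treated with mitomycin C, and 2i is a pair of inhibitors, CHIR99021 against Gsk3β and PD0325901 against Mek. All 4 cultures received LIF at 1000 U/ml, and −F, F and F2i also received 20% fetal bovine serum. For NB2i the inhibitor concentrations were 3 μM CHIR99021 and 1 μM PD0325901, while those for F2i were not given in the sources used here. Each condition had 2 replicates of the 1 line, called biological duplicates in the design of the series. The results are thus those of cultures of N33, with any feeder RNA left in F and F2i, and not of ESCs in general. Per the labels, feeders were depleted from F and F2i by differential attachment before RNA was prepared.

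LIF binds LIFR on the ESC surface, and LIFR pairs with gp130, the product of Il6st, which is shared by the receptors of the IL-6 family. JAK kinases bound to the receptor tails then phosphorylate STAT3, which enters the nucleus and activates genes that sustain self-renewal of mouse ESCs. SOCS3 is itself a target of STAT3 and blocks the receptor and its kinases, which closes a feedback loop. OSMR takes the place of LIFR in the receptor for oncostatin M and is expressed by fibroblasts. RNA levels do not show phosphorylation of STAT3, which was not measured in these tables.

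For Socs3, the feedback gene of the pathway, the 250 bases before the start site are shown because they held a match to the STAT motif TTCNNNGAA. The stretch lies at chr11:117969367-117969616 of GRCm38.p6 on the minus strand, from RefSeq, and the capitals mark the match. The motif reads the same on both strands. The start site is the one in the RefSeq promoter table. It lies inside the span given for Socs3 below, which reaches further upstream, so the stretch is within the annotated gene.
Socs3: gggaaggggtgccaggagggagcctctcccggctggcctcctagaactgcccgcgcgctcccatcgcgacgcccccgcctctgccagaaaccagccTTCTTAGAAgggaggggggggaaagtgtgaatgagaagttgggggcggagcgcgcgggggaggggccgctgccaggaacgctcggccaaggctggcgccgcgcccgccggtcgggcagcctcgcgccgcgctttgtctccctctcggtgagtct
The match began 154 bases before the start. All 10 genes had windows of 300 bases in the RefSeq table, 12 windows in all, and that of Socs3 was the 1 window with a match. Among all RefSeq promoters of this length, 2726 of 32851 windows, or 8.30%, held one. A match is a run of letters and not a site shown to be bound, and the absence of one says nothing about STAT3 at the other genes.

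Total expected counts, the authors' estimate of reads per gene, were between 20129641 and 20664488 per sample, so depth was nearly equal. The 5 ESC markers Pou5f1, Sox2, Nanog, Zfp42 and Esrrb summed to 1191 to 1611 FPKM in every sample, where FPKM is the authors' level per transcript length and sequencing depth. A list of 12 genes known from fibroblasts, led by the collagen genes Col1a1 and Col1a2, were followed as markers of feeder cells. They summed to 9.79 and 10.1 FPKM in −F, 204 and 212 FPKM in F, 555 and 541 FPKM in F2i, and 1.95 and 2.37 FPKM in NB2i. All 12 were higher in F than in −F at an adjusted p under 0.05 and at least 2-fold. From F to F2i 9 of them were called higher, 5 of these by at least 2-fold, and 3 were not called. All 12 were lower in NB2i than in F2i. Lum, Dcn and Postn were at 0 FPKM in both NB2i samples, and Lum was at 0 in both −F samples as well. In NB2i against −F 9 of the 12 markers were lower, 1 was higher and 2 were not called. In bulk RNA more cells of a type and more RNA per cell cannot be told apart. Values in F and F2i may hold ESC and feeder RNA together, and the part of feeder RNA was not tested for any gene.

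**Figure D1:**
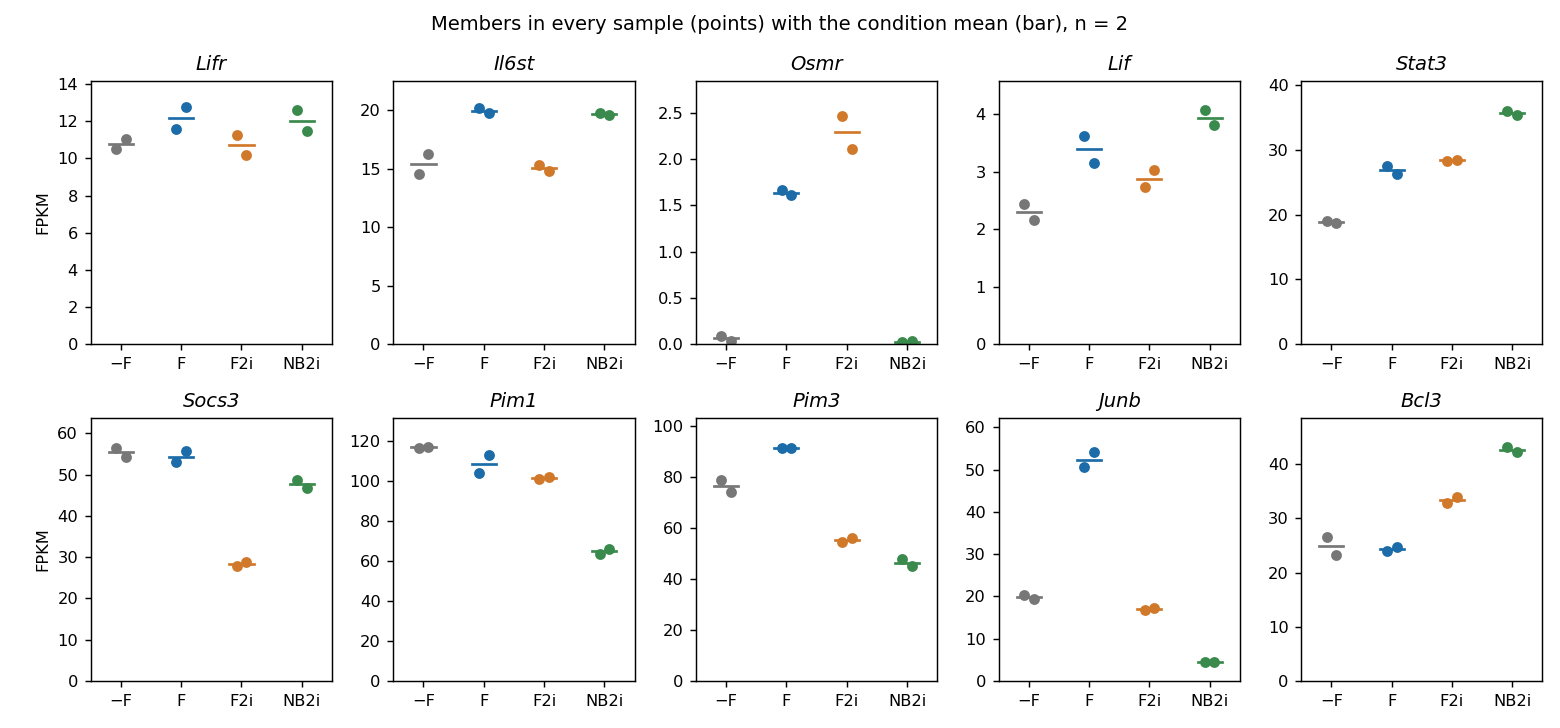
FPKM of the 10 members (y axis, from 0, a scale of its own in each panel) in −F, F, F2i and NB2i (x axis), with a point for each of the 2 replicates and a bar for their mean. Osmr is near 0 in −F and NB2i, Junb is highest in F and lowest in NB2i, and Stat3 and Bcl3 are highest in NB2i.

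Counts were compared with edgeR's quasi-likelihood test and Benjamini-Hochberg adjustment over all 15287 genes tested, and a gene was called at an adjusted p under 0.05. In F against −F, 7 of the 10 members were higher and none was lower, where 21.7% of all genes tested were called higher and 18.5% lower. In F2i against F, 3 members were higher and 5 lower, beside 27.3% and 27.4% of all genes. In NB2i against F2i, 6 were higher and 4 lower, beside 33.3% and 30.8%. In NB2i against −F, 5 were higher and 4 lower, beside 36.9% and 35.4%. With a fold change of at least 2 as well, the members called numbered 2, 1, 2 and 1 in these comparisons, where the shares of all genes were 7.24%, 13.4%, 19.3% and 27.2%. They were Osmr and Junb in F against −F and in NB2i against F2i and Junb alone in the others, and the other 8 members moved by less than 2-fold in each of the 4 comparisons. The median log2 fold change of the members was 0.34, −0.28, 0.35 and 0.037 in the same order, and that of all genes tested lay between −0.0028 and 0.018. The 4 comparisons share samples, so their counts are not independent of one another. NB2i differs from F2i in feeders, serum and coating at once, and from −F in medium, coating and 2i at once. The parts of these in a change to NB2i cannot be told apart. A test of 2 samples against 2 cannot give an exact permutation p under 0.333, so every adjusted p rests on the model and its small spread between replicates, a biological coefficient of variation of 3.25%.

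**Figure D2:**
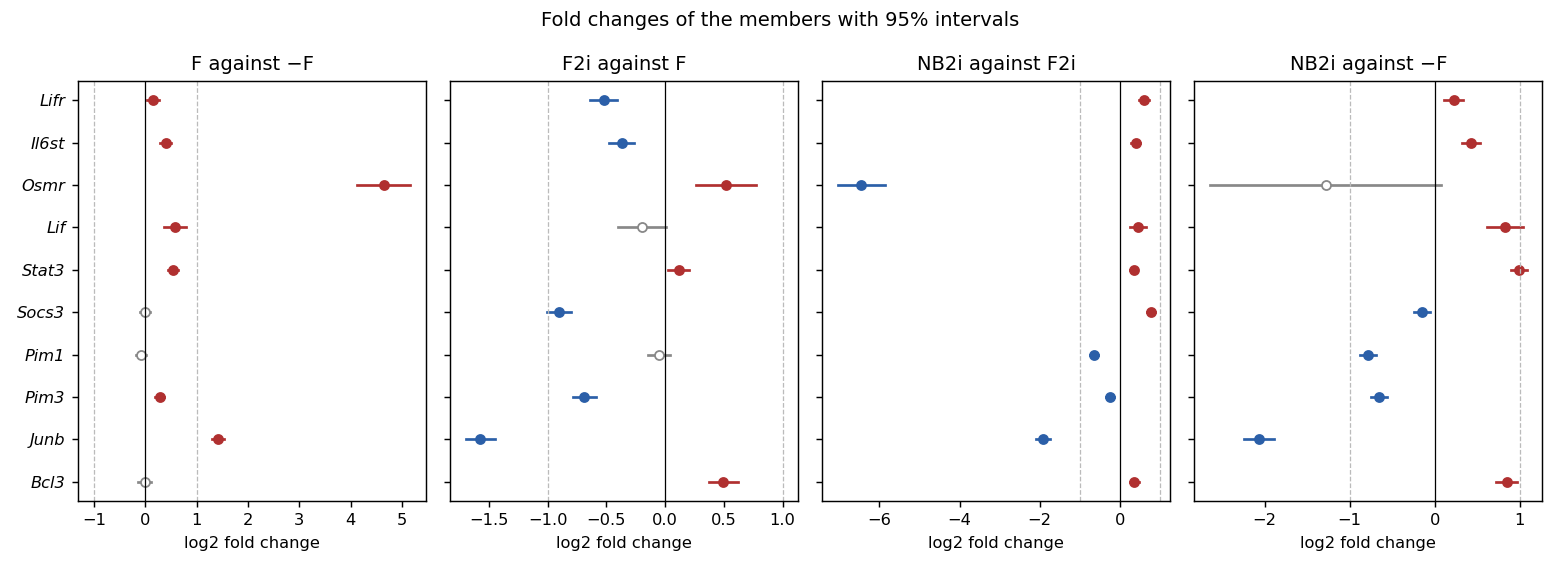
Log2 fold change (x axis) of each member (y axis) in 4 comparisons, with 95% intervals from the edgeR fit; red is called higher, blue called lower, and open grey not called, and dashed lines mark a 2-fold change. Osmr and Junb pass the dashed lines, while Stat3 in NB2i against −F stops just short at 0.99.

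Among the receptor chains, Il6st (gp130, Entrez ID 16195, chromosome 13 from 112464070 to 112506860 in GRCm38) took one of a pair of levels. It was at 14.5 and 16.2 FPKM in −F, 20.2 and 19.7 FPKM in F, 15.3 and 14.8 FPKM in F2i, and 19.8 and 19.6 FPKM in NB2i. Every F and NB2i sample was above every −F and F2i sample. The log2 fold change was 0.40 in F against −F (standard error 0.051, adjusted p = 2.1e-06), −0.37 in F2i against F (standard error 0.051, adjusted p = 2.9e-06) and 0.39 in NB2i against F2i (standard error 0.051, adjusted p = 9.3e-07). A further pair of comparisons set neighbouring levels side by side, F2i against −F, in which 67.8% of all genes tested were called, and NB2i against F, in which 73.5% were. For Il6st F2i against −F differed by 0.030 (95% interval −0.079 to 0.14, adjusted p = 0.62), and NB2i against F by 0.024 (95% interval −0.080 to 0.13, adjusted p = 0.68). The order of the levels was thus F2i and −F, then NB2i and F, with no call inside either pair.

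Lifr (Entrez ID 16880, chromosome 15 from 7090610 to 7197489) encodes the chain that binds LIF. Its FPKM was 10.5 and 11.1 in −F, 11.6 and 12.8 in F, 11.3 and 10.2 in F2i, and 12.6 and 11.5 in NB2i. The condition means spanned only 1.14-fold, from 10.7 FPKM in F2i to 12.2 FPKM in F. Its expected counts spread further, with 1821 and 1776 in −F, 1861 and 2059 in F, 1374 and 1259 in F2i, and 2071 and 1963 in NB2i. On counts the log2 fold change was −0.52 in F2i against F (standard error 0.056, adjusted p = 6.2e-08) and 0.60 in NB2i against F2i (standard error 0.056, adjusted p = 6.0e-09). The increase in F against −F was 0.15 (standard error 0.054, adjusted p = 0.032). Without F replicate 2 or −F replicate 2 that last call was lost, with 0.079 and 0.13, and DESeq2 did not call it (0.14, adjusted p = 0.16). NB2i was above −F by 0.22 (adjusted p = 9.4e-04) and did not differ by the test from F (0.072, 95% interval −0.039 to 0.18, adjusted p = 0.23).

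FPKM divides by transcript length, and the mean length that RSEM assigned to Lifr was shorter in F2i. This length, which weights the 2 transcripts listed for Lifr by their estimated abundance, was 5991 and 6003 bases in F2i and between 7751 and 8380 bases in the other 6 samples. The ratio of F2i to F was 0.770 for the length, 0.677 for counts per total and 0.881 for FPKM. Of 3423 genes with several transcripts and at least 100 counts in each F and F2i sample, Lifr was the 1 gene whose length changed that much without overlap. The annotation gives the 2 transcripts 1092 codons in 20 exons and 719 codons in 17 exons. A soluble LIFR without a membrane anchor is known in mouse, but which transcript the reads of 50 bases came from was not tested here. The Lifr length was chosen for description after its values were seen. On log2(FPKM + 1) with limma no comparison of Lifr was called, as in F2i against F with −0.17 (adjusted p = 0.081).

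**Figure D3:**
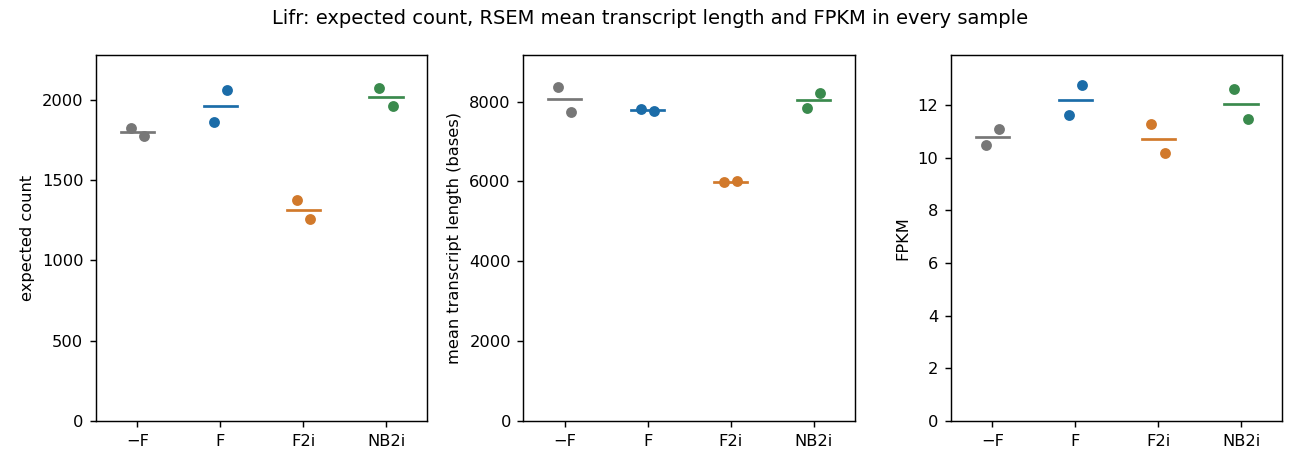
Expected count of Lifr, the mean transcript length that RSEM gave it in bases, and its FPKM (y axes, each from 0) in the 4 conditions, with a point for each replicate and a bar for the mean. The count and the length are lowest in both F2i samples, and the FPKM is nearly level.

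Osmr (Entrez ID 18414, chromosome 15 from 6813568 to 6874968), the oncostatin M receptor chain, was the member that differed most. It was at 0.090 and 0.040 FPKM in −F, 1.66 and 1.61 FPKM in F, 2.46 and 2.11 FPKM in F2i, and 0.020 and 0.030 FPKM in NB2i. Feeder cultures and feeder-free cultures did not overlap, and the feeder-free values rest on 9 and 4 counts in −F and on 2 and 3 counts in NB2i. On the log2 scale Osmr was higher in F than in −F by 4.65 (standard error 0.25, adjusted p = 2.2e-12) and in F2i than in F by 0.52 (standard error 0.12, adjusted p = 0.0012). The latter was not called by limma on log2(FPKM + 0.1), with an adjusted p of 0.12. NB2i against F2i gave −6.45 (standard error 0.28, adjusted p = 1.3e-14). Per total count F2i held 91.9 times the Osmr reads of NB2i, with an exact 95% interval of 39.1 to 284.5 that covers counting error only. NB2i against −F was not called (−1.28, 95% interval −2.64 to 0.078, adjusted p = 0.087), although it passed without −F replicate 2 (−1.74, adjusted p = 0.033). Without that replicate the value in F against −F was 4.19, and without −F replicate 1 it was 5.33. The summed FPKM of the fibroblast markers also rose at these steps, to 20.9 times higher in F than in −F and 2.63 times higher in F2i than in F. Col1a1 weighed heavily in the sum, going from 67.8 FPKM in F to 243.6 FPKM in F2i. In F2i against F the median log2 fold change of the 12 markers was 0.71, and 3 of them were not called. Their part in the level of Osmr was not tested.

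**Figure D4:**
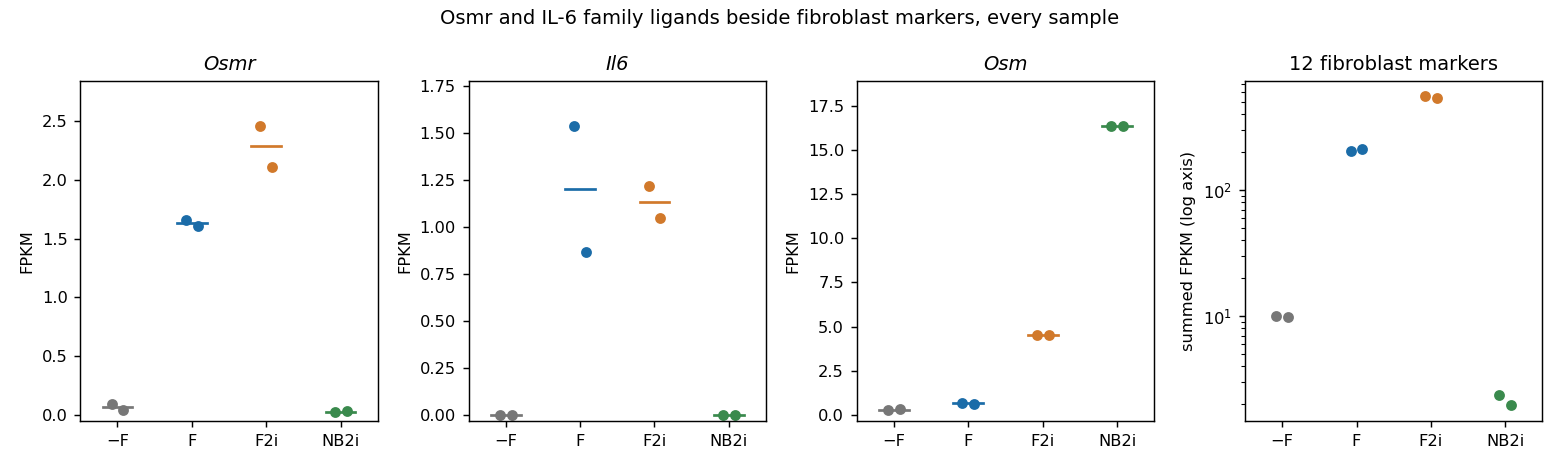
FPKM of Osmr and of the ligand genes Il6 and Osm (linear axes) and the summed FPKM of 12 fibroblast markers (log axis) in every sample of the 4 conditions. Osmr, Il6 and the markers are high in F and F2i, whereas Osm is highest in NB2i, at 16.4 FPKM in both samples.

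The ligand gene Lif (Entrez ID 16878, chromosome 11 from 4257568 to 4272514) was transcribed at low levels in all cultures, beside the LIF added to each medium. It measured 2.44 and 2.16 FPKM in −F, 3.63 and 3.16 FPKM in F, 2.74 and 3.03 FPKM in F2i, and 4.07 and 3.82 FPKM in NB2i. The −F samples were the lowest and the NB2i samples the highest, without overlap. The part of feeder RNA in the level of Lif in F and F2i was not tested. Lif was higher in F than in −F by 0.58 on the log2 scale (standard error 0.10, adjusted p = 1.1e-04) and higher in NB2i than in −F by 0.82 (standard error 0.10, adjusted p = 1.9e-07). It also rose from F2i to NB2i, by 0.45 (adjusted p = 3.7e-04), and was higher in NB2i than in F by 0.25 (adjusted p = 0.022). The difference of F2i from F, −0.20, missed the threshold (95% interval −0.41 to 0.0041, adjusted p = 0.091) but passed it without F replicate 2 (−0.29, adjusted p = 0.048).

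Stat3 (Entrez ID 20848, chromosome 11 from 100886806 to 100939594), the factor that carries the signal to the nucleus, climbed over the 4 conditions in the order −F, F, F2i and NB2i. Its FPKM was 19.0 and 18.8 in −F, 27.5 and 26.3 in F, 28.3 and 28.5 in F2i, and 36.1 and 35.4 in NB2i, with no overlap between any of the conditions. Stat3 rose by 0.53 on the log2 scale from −F to F (standard error 0.045, adjusted p = 3.9e-09) and by 0.34 from F2i to NB2i (standard error 0.042, adjusted p = 4.9e-07). The step from F to F2i was small, at 0.11 (standard error 0.043, adjusted p = 0.029), and was not called without F replicate 2 (0.095), F2i replicate 1 (0.12) or F2i replicate 2 (0.11), nor by DESeq2 (adjusted p = 0.062). Between the feeder-free cultures, NB2i exceeded −F by 0.99 (standard error 0.044, adjusted p = 9.5e-15), a 1.98-fold difference. The summed fibroblast markers were low in both of these cultures. The part of feeder RNA in the rise of Stat3 from −F to F was not tested.

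Socs3 (Entrez ID 12702, chromosome 11 from 117966079 to 117970336), the feedback inhibitor with a stretch before its RefSeq start site printed above, was lowest in F2i. It was at 56.6 and 54.3 FPKM in −F, 53.0 and 55.7 FPKM in F, 27.8 and 28.7 FPKM in F2i, and 48.8 and 46.7 FPKM in NB2i. F and −F overlapped, both F2i samples lay far below all others, and the NB2i samples stood between. The log2 fold change in F2i against F was −0.91 (standard error 0.048, adjusted p = 6.1e-13), and in NB2i against F2i it was 0.76 (standard error 0.048, adjusted p = 9.1e-12). F differed from −F by −0.0053, with a 95% interval of −0.099 to 0.088 (adjusted p = 0.94). NB2i was below −F by a small amount, a log2 difference of −0.15 (standard error 0.045, adjusted p = 0.0062), which lost its call without NB2i replicate 2 (−0.10, adjusted p = 0.12). Stat3 and Socs3 did not follow the same order, since NB2i had the highest Stat3 and −F the lowest, while F2i had the lowest Socs3.

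Pim1 and Pim3 encode serine/threonine kinases that favour survival and growth. Pim1 (Entrez ID 18712, chromosome 17 from 29490785 to 29496111) was at 116.7 and 117.1 FPKM in −F, 104.0 and 112.9 FPKM in F, 101.2 and 101.9 FPKM in F2i, and 63.5 and 66.3 FPKM in NB2i. Only the NB2i samples stood well apart, below all the others. Pim1 fell by 0.64 on the log2 scale from F2i to NB2i (standard error 0.047, adjusted p = 1.0e-10) and was lower in NB2i than in −F by 0.78 (standard error 0.046, adjusted p = 1.4e-12). F against −F was −0.086 (95% interval −0.18 to 0.0071, adjusted p = 0.13), which passed the test without F replicate 2 (−0.15, adjusted p = 0.035). F2i against F was −0.056 (95% interval −0.15 to 0.037, adjusted p = 0.31). Over both steps, F2i against −F was called lower, at −0.14 (adjusted p = 0.0082).

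Pim3 (Entrez ID 223775, chromosome 15 from 88862194 to 88865726) differed in every comparison. Its FPKM was 78.7 and 73.9 in −F, 91.2 and 91.4 in F, 54.2 and 56.1 in F2i, and 47.6 and 45.0 in NB2i. The 4 conditions did not overlap, and both cultures with 2i were below both without. In log2 terms F exceeded −F by 0.28 (standard error 0.044, adjusted p = 2.9e-05). The difference was −0.69 in F2i against F (standard error 0.045, adjusted p = 2.7e-11), −0.25 in NB2i against F2i (standard error 0.047, adjusted p = 1.1e-04) and −0.65 in NB2i against −F (standard error 0.046, adjusted p = 3.2e-11). Per kilobase, Pim1 was above Pim3 in every sample.

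Junb (Entrez ID 16477, chromosome 8 from 84976909 to 84978748) encodes a subunit of the AP-1 factor and is an early response gene of ERK as well as of STAT3. It was at 20.3 and 19.4 FPKM in −F, 50.5 and 54.1 FPKM in F, 16.9 and 17.3 FPKM in F2i, and 4.59 and 4.46 FPKM in NB2i. It was the member that passed 2-fold in all 4 comparisons, and no conditions overlapped. Its log2 fold change was 1.42 in F against −F (standard error 0.058, adjusted p = 2.0e-14), −1.57 in F2i against F (standard error 0.059, adjusted p = 2.3e-15) and −1.91 in NB2i against F2i (standard error 0.084, adjusted p = 1.6e-14). Between the feeder-free cultures the log2 fold change of NB2i against −F was −2.06 (standard error 0.082, adjusted p = 1.2e-15), a 4.19-fold difference. From F to F2i Junb fell while the summed fibroblast markers rose, and from −F to F both rose. The part of feeder RNA in the level of Junb in F was not tested, nor was that of the feeder depletion before RNA was prepared.

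Bcl3 (Entrez ID 12051, chromosome 7 from 19808462 to 19822824), an IκB family protein that works in the nucleus, was higher in both cultures with 2i. Its FPKM was 26.5 and 23.3 in −F, 24.0 and 24.7 in F, 32.9 and 34.0 in F2i, and 43.2 and 42.2 in NB2i. F lay within the range of −F, and both 2i cultures were above. Bcl3 differed on the log2 scale by 0.50 in F2i against F (standard error 0.060, adjusted p = 4.4e-07), 0.36 in NB2i against F2i (standard error 0.057, adjusted p = 1.2e-05) and 0.84 in NB2i against −F (standard error 0.059, adjusted p = 2.2e-11). F differed from −F by −0.0098, with a 95% interval of −0.14 to 0.12 (adjusted p = 0.92). The 5 target genes thus did not share a direction in F2i against F, where Socs3, Pim3 and Junb were lower, Bcl3 was higher and Pim1 was not called.

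Other genes of the pathway were counted by lists, with the same fit. Of all genes tested, 21.7% were called higher and 18.5% lower in F against −F, and 27.3% and 27.4% in F2i against F. For NB2i against F2i the shares were 33.3% and 30.8%, and for NB2i against −F 36.9% and 35.4%. The counts of every list are to be read beside these shares. Among 10 further genes for IL-6 family ligands 7 could be tested. In F against −F 3 of them were higher, 4 were not called and none was lower. Il6, the founding cytokine of the family, had no counts in either −F or either NB2i sample, while it reached 1.54 and 0.87 FPKM in F and 1.22 and 1.05 FPKM in F2i. Against a floor of 3 counts per group, the ratio of Il6 in F to −F was 18.4 per total count. It takes the 55 counts of F as exact, with no interval. In F2i against F 1 ligand gene, Osm, was higher and none was lower. Osm (oncostatin M) was at 0.26 and 0.31 FPKM in −F, 0.65 and 0.64 FPKM in F, 4.51 and 4.54 FPKM in F2i, and 16.4 FPKM in both NB2i samples. Its log2 fold change was 2.85 in F2i against F (standard error 0.16, adjusted p = 1.1e-12) and 5.91 in NB2i against −F (standard error 0.14, adjusted p = 2.5e-19). Osm was highest in NB2i and lowest in −F. Osmr was near 0 in both of these cultures, with 5 counts in NB2i and 13 in −F, and did not differ between them by the test. In NB2i against F2i 2 ligand genes were higher and 3 lower, and in NB2i against −F 3 and 3. Il11 was at 1.16 FPKM in F2i and 0.495 FPKM in NB2i (adjusted p = 0.0024), and Ctf1, the cardiotrophin gene, at 1.39 FPKM and 2.94 FPKM (adjusted p = 2.8e-05). Cntf, the ciliary neurotrophic factor gene, went from 0.255 FPKM in −F to 1.17 FPKM in F (adjusted p = 0.0029), with few reads. In NB2i, which has no feeders, Cntf was at 1.14 FPKM (adjusted p = 0.0012 against −F). The −F samples were at 0.51 and 0 FPKM. Cntf also overlaps transcripts that read through from its neighbour Zfp91.

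Of 6 further receptor chain genes 5 were tested, and their counts too stand beside the shares of all genes given above. In F against −F 1 was higher and none lower, in F2i against F 1 was higher and 3 lower, and the same counts held for NB2i against F2i and for NB2i against −F. Il6ra, the chain that binds IL-6, was higher in F2i than in F by 1.96 (standard error 0.20, adjusted p = 2.5e-08) and in NB2i than in F2i by 1.28 (standard error 0.13, adjusted p = 1.9e-08), and reached 3.33 FPKM in NB2i from 0.205 FPKM in −F. Cntfr, the chain for ciliary neurotrophic factor, fell by 1.47 on the log2 scale from F to F2i (standard error 0.12, adjusted p = 6.7e-10). Il11ra1, the receptor chain for IL-11, was at 3.51 FPKM in −F and 1.13 FPKM in NB2i (adjusted p = 1.7e-07).

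Of 10 JAK kinase and other STAT genes tested, 6 were higher and 1 lower in F against −F, beside 21.7% and 18.5% of all genes. In F2i against F 4 were higher and 1 lower, beside 27.3% and 27.4%. None of them passed 2-fold in either comparison, which 7.24% and 13.4% of all genes did. Jak1, a kinase that gp130 uses, was at 14.8 and 16.0 FPKM in −F, 17.3 and 17.4 FPKM in F, 16.5 and 16.4 FPKM in F2i, and 11.4 and 10.4 FPKM in NB2i. In NB2i against F2i 6 genes of the list were higher and 3 lower, beside 33.3% and 30.8% of all genes. In NB2i against −F the counts were 6 and 2, beside 36.9% and 35.4%. Jak3, a kinase of cytokine receptors with the common gamma chain, rose from 8.85 and 8.58 FPKM in −F to 35.1 and 34.0 FPKM in NB2i, which is 4.18-fold (adjusted p = 8.0e-19). Stat2, a factor of interferon signalling, was at 9.14 and 9.11 FPKM in −F, 5.45 and 5.50 FPKM in F, 6.21 and 6.92 FPKM in F2i, and 14.6 and 15.0 FPKM in NB2i. It was lowest in F and higher in NB2i than in F2i by 1.18 (standard error 0.063, adjusted p = 4.8e-13).

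Of 15 genes for inhibitors and phosphatases, 5 were higher and 1 lower in F against −F, beside 21.7% and 18.5% of all genes. In F2i against F 1 was higher and 6 lower, beside 27.3% and 27.4%. In NB2i against F2i 4 were higher and 4 lower, beside 33.3% and 30.8%. In NB2i against −F the counts were 5 and 6, beside 36.9% and 35.4%. Socs2, which like Socs3 encodes a feedback inhibitor of cytokine receptors, was at 45.2 and 43.4 FPKM in −F, 47.6 and 49.3 FPKM in F, 22.5 and 24.0 FPKM in F2i, and 33.8 and 34.6 FPKM in NB2i. Its log2 fold change in F2i against F was −1.02 (standard error 0.050, adjusted p = 1.6e-13), and it was lowest in F2i, as Socs3 was. Cish, another gene of this family, was at 3.70 and 3.39 FPKM in −F and 1.47 and 1.52 FPKM in NB2i (adjusted p = 1.1e-08).

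A list of 15 further genes named as targets of STAT3 in ESCs or other cells moved in both directions. In F against −F 9 were higher and 3 lower, beside 21.7% and 18.5% of all genes. In F2i against F the counts were 6 and 9, beside 27.3% and 27.4%. NB2i against F2i gave 6 and 8, beside 33.3% and 30.8%, and NB2i against −F 6 and 7, beside 36.9% and 35.4%. Klf4 and Tfcp2l1 encode transcription factors through which LIF sustains self-renewal. Klf4 went from 54.2 and 54.7 FPKM in −F to 199.3 and 200.2 FPKM in F, and Tfcp2l1 from 42.6 and 43.3 FPKM in F to 135.3 and 121.5 FPKM in F2i (adjusted p = 2.5e-19 and 1.5e-16). Myc, Gbx2 and Pim2 fell together from F to F2i, by 1.80, by 1.37 and by 1.17 on the log2 scale (adjusted p = 1.3e-11, 4.7e-12 and 4.6e-11). Pim2, the third Pim kinase gene, was at 25.8 FPKM in −F and 5.17 FPKM in NB2i (adjusted p = 4.4e-16). Mcl1, a survival gene of the Bcl2 family, was at 181.5 FPKM in F2i and 81.9 FPKM in NB2i (adjusted p = 1.0e-15). Fos, the AP-1 partner of Junb, was at 2.48 and 2.90 FPKM in −F, 147.2 and 144.4 FPKM in F, 77.2 and 81.0 FPKM in F2i, and 1.72 and 1.53 FPKM in NB2i. Fos, like Osmr, was high in F and F2i, where the fibroblast markers were high. From F to F2i, however, Fos fell while Osmr and the summed markers rose. The part of feeder RNA in the level of Fos was not tested. F and F2i were also the cultures depleted of feeders before RNA was prepared, and that step cannot be told apart from the feeders.

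**Figure D5:**
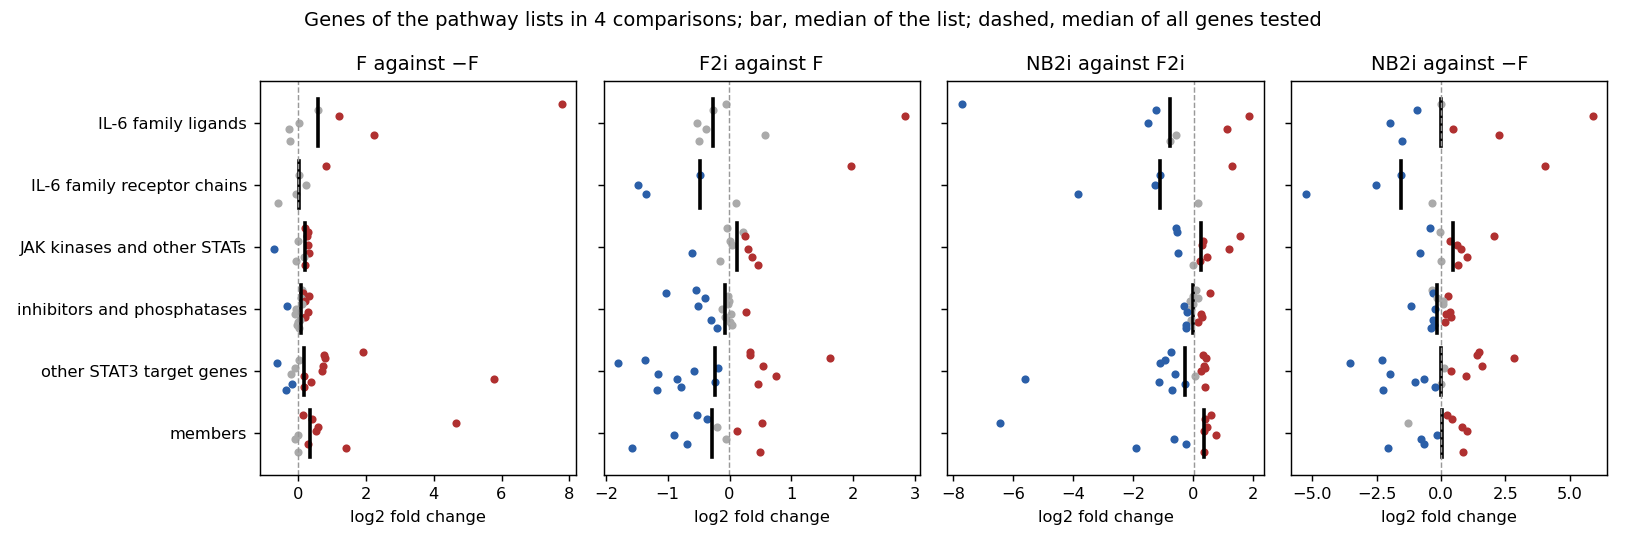
Log2 fold change (x axis) of each tested gene of the 5 further lists and of the members (y axis) in 4 comparisons; red is called higher, blue called lower and grey not called. Black bars mark the median of a list and the dashed line the median of all genes tested; the widest spread is among ligands and other STAT3 target genes.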

How the data were processed

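Poly-A RNA was read from one end for 50 bases on a BGISEQ-500. The authors used Bowtie2 for alignment to mm10 and RSEM for quantification (versions not given in the sources used here). Their deposited expected count is an estimated number of reads for each gene, without normalization, and 29.8% of the values were not whole. Their deposited FPKM adjusts it for transcript length and depth. A gene missing from the list of a sample was set to 0. Depth was nearly equal, and counting error was largest for Osmr in −F and NB2i, which had few reads of it. Coordinates are RefSeq's for GRCm38, the build of mm10.

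Rounded expected counts of 15287 genes (10 counts or more in 2 or more samples) were fitted with edgeR 4.0.16 in R 4.3.3 (TMM, glmQLFit, glmQLFTest). The fit held all 8 samples, condition as the factor and 4 residual degrees of freedom, and Benjamini-Hochberg adjustment was made over all genes of a comparison. Standard errors follow from the fold change and the F statistic. Alternatives were DESeq2 1.42.0, its size factors in edgeR, no filter, 10 counts in every sample, fits of the compared groups alone, a replicate block, each sample left out, and limma 3.58.1 on log FPKM with a pseudocount of 1 or 0.1, for genes of 0.5 FPKM or more in 2 samples.

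The members and lists were chosen with earlier results of these data known. A gene of a further list could be named where it was called, changed 2-fold without overlap and averaged 1 FPKM or more in its higher group, up to 4 genes for each list and comparison. Jak1 was named outside this rule, after its values were seen. Replicates differed by more than sampling noise (chi-square per degree of freedom 1.89 to 3.71). No source used here says that they were separate cultures, so p-values may measure technical spread. Protein sequences were not used here, and 1 gene that met the naming rule is not reported here.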

Additional observations from a re-analysis of the deposited data

How the results depend on the processing

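Of 475 recomputed log2 fold changes of members, 445 kept their direction and their side of the threshold, 22 lost the call, 3 gained one and 5 changed sign. The 5 were values near 0 that were never called, in fits without 1 sample: Bcl3 (0.014 and 0.084, range −0.10 to 0.084) and Socs3 (0.032 and 0.021, range −0.046 to 0.032) in F against −F, and Pim1 (0.015, range −0.12 to 0.015) in F2i against F. The number of members called was 6 to 7 in F against −F, 7 to 8 in F2i against F, 10 in NB2i against F2i and 8 to 10 in NB2i against −F when each sample was left out in turn. Members called at 2-fold were 2, 1 and 2 in the first 3 and 1 to 2 in NB2i against −F, where the second gene was Stat3 (without NB2i replicate 2, 1.02) or Osmr (without −F replicate 2, −1.74). Limma on log2(FPKM + 0.1) called 5 members in F2i against F in place of 8. Keeping only genes with at least 10 counts in every sample removed Osmr and left 1 member past 2-fold in F against −F and 1 in NB2i against F2i. The replicate block changed no call, with 7, 8, 10 and 9 members called. Deviations of samples with the same number had correlations from −0.091 to 0.056 (mean −0.017 over 6 pairs of conditions), so no deviation shared by number was seen. Whether samples of the same number were handled together cannot be learned from this.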

Other observations

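Genes whose pattern over the 8 samples was most like that of a member were listed by Pearson's r of log2 CPM, among genes of at least 1 FPKM whose condition means span at least 1 log2 unit (3371 or 3372 genes for each member). The 8 samples form 4 conditions of 2, so r mostly restates the order of 4 means and carries no p. For Stat3 these genes were Sdc3 (r = 0.997), Vegfa (0.995) and Gstp2 (0.991). For Socs3 they were Optn (0.993), Irf8 (0.987) and Elmo1 (0.986). For Osmr they were Taf1d (0.998), Dcn (0.997) and Grem1 (0.995), and Dcn is one of the 12 fibroblast markers. For Lifr, on counts, they were Fam84b (0.986), Rab3il1 (0.984) and Tmem151b (0.975).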
